A study of Dugesia japonica with 19 samples.

Results

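Head and tail are the opposite poles of the planarian body, and the comparison set the heads against the tails of the flatworm Dugesia japonica at single adenosines of its messenger RNA. A site was an ACA motif, given by its contig (an assembled transcript), its position and its strand, and it entered when both poles had at least 10 reads there on the same day on at least 3 days. This left 54 of the 5847 distinct sites in the series, on 27 contigs, with 255 same-day pairs of values. Of the 54 sites, 17 were paired on all 6 days, 19 on 5 days, 4 on 4 days and 14 on 3 days. Just inside this minimum, the 14 sites with 3 paired days had a median head minus tail difference in uncut share (the fraction of reads left uncut) of -0.0395, and the 11 sites just outside it, with 2 paired days, one of -0.00618.

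The study sampled regenerating animals on days 0, 1, 3, 5, 7 and 10, with 1 library each of head, trunk and tail per day, so the head group had 6 libraries and the tail group 6. No genetic change or drug is named for any group, and the tissue and the day were the only differences given. Each library came from pieces of 10 to 20 pooled worms. A single control library from intact animals, made by in vitro transcription so that its RNA carries no modification, served both poles. Since each pole had 1 library a day, days took the place of replicates, so an SD below covers change with time as well as error, and differences between poles and differences in how the pieces were prepared cannot be told apart.

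N6-methyladenosine (m6A) is a methyl mark placed on messenger RNA by a methyltransferase complex and bound by reader proteins of the YTH family, through which it bears on the decay, splicing and translation of transcripts. Planarians regrow either pole from stem cells called neoblasts, and Wnt signalling sets which end becomes head and which becomes tail. In the intact animal the head holds the brain, and the tail holds gut branches, body wall muscle and nerve cords but no brain. A regenerating piece can regrow the missing pole, so head and tail pieces of later days need not keep this make-up. Which of these tissues the pieces held on each day was not tested. m6A-REF-seq reads the mark with MazF, an endoribonuclease that cuts RNA at unmethylated ACA motifs and leaves a methylated motif whole. The uncut share is the fraction of reads at a site that were left whole, and the m6A level is that share minus the uncut share in the control. Since both poles had the same control, the head minus tail difference in level at a site is the same number as the difference in uncut share.

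Head values were lower than tail values at most sites. By their means over the paired days, 39 sites had a lower uncut share in head, 7 had a higher one and 8 were equal. In the limma fit of day-paired differences, with Benjamini-Hochberg adjustment over the 54 sites tested, 15 sites on 11 contigs passed the adjusted threshold of 0.05 with less uncut RNA in head, which is 27.8% of the sites tested. No site passed with more uncut RNA in head (0%), while at an unadjusted p under 0.05 the counts were 23 lower and 0 higher, and a quasi-binomial model on the read counts called 25 lower and 2 higher. The median difference was -0.0366 over all 54 sites and -0.158 over the 15. Among the 15, 7 differed by more than 0.3, 2 by between 0.1 and 0.3, and 6 by less than 0.1. The head and tail ranges did not overlap at 12 of these 15 sites, and at 21 of all 54.

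Tail reads at these sites were nearly all whole. The mean uncut share was above 0.9 at 50 sites in tail and at 39 in head, and it was below 0.7 in head at 8 sites. No cut read was seen in any paired tail library at 24 sites, in any paired head library at 10, and in either pole at 8. The values also varied more from day to day in head, where the median SD over days was 0.0218, against 0.000422 in tail. The SD was larger in head at 36 sites and in tail at 10. The share cannot pass 1, and at the 24 sites with no cut tail read the tail SD is 0 by construction, so these SDs do not show that tail is the more stable. A count of 0 cut reads limits the cut share only as far as the reads allow, and head had the deeper libraries at 45 of the 54 sites, with a median of 363.5 reads per site in head and 52.25 in tail.

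The site with the largest difference was position 1951 of contig TRINITY_DN1290_c0_g1_i7, on the minus strand of a contig 3433 bases long. The uncut share in head was 0.301, 0.280, 0.273, 0.465, 0.270 and 0.333 on days 0, 1, 3, 5, 7 and 10. In tail it was 0.959, 0.928, 0.988, 0.984, 0.973 and 0.967 on the same days. Every head library lay below every tail library, and day 5 stood above the other head days. The means were 0.320 ± 0.0746 in head and 0.966 ± 0.0217 in tail (SD, n = 6 days), and the difference was -0.646 (SE 0.0273, limma adjusted p = 3.34e-05). The head value of day 10 rested on 15 reads, with a 95% Wilson interval from 0.152 to 0.583, still below the lowest tail value. The control was uncut at a share of 0.116, so the mean m6A level was 0.204 in head and 0.850 in tail.

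Contig TRINITY_DN678_c0_g2_i4, 5705 bases long, carried the next largest difference at position 3263 on its minus strand. Head shares there were 0.346, 0.305, 0.373, 0.335 and 0.344 on days 0, 1, 3, 5 and 7, and tail shares were 0.929, 0.955, 0.929, 0.953 and 0.985. The pole ranges were far apart and head varied little, by an SD of 0.0246 around a mean of 0.341. The difference from the tail mean of 0.95 ± 0.0232 (SD, n = 5 days) was -0.609 (SE 0.0170, limma adjusted p = 3.34e-05). Day 10 gave no pair because the head list of that day did not hold the site.

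Position 448 of the same contig had head shares of 0.284, 0.375, 0.477, 0.532 and 0.466 on days 0, 1, 3, 5 and 7. The tail shares were 0.955, 0.944, 0.965, 0.966 and 0.958. Head lay below tail on each day, with day 0 the lowest head value and the tail days within a narrow band. The difference was -0.531 (SE 0.0391, limma adjusted p = 0.000956), between 0.427 ± 0.0977 in head and 0.958 ± 0.0087 in tail (SD, n = 5 days).

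Position 339 of contig TRINITY_DN155747_c0_g1_i1, on the minus strand of 1024 bases, was among the deepest sites, with 2364 to 60397 head reads and 145 to 8432 tail reads per library. Its head shares were 0.426, 0.345, 0.584, 0.407, 0.498 and 0.508 in day order. The tail shares were 0.999, 0.986, 0.995, 1.0, 0.999 and 1.0. Head reads were thus cut about as often as not while tail reads were almost never cut, and the ranges did not overlap. The difference was -0.535 (SE 0.0326, limma adjusted p = 0.00014), between 0.461 ± 0.0853 and 0.997 ± 0.0054 (SD, n = 6 days).

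Position 153 on the plus strand of TRINITY_DN24716_c0_g1_i1, a contig of 465 bases, had head shares of 0.562, 0.386, 0.505, 0.577, 0.503 and 0.478. The tail shares were 0.887, 0.909, 1.0, 0.941, 0.990 and 0.921. The highest head day was below the lowest tail day, and the difference was -0.439 (SE 0.0309, limma adjusted p = 0.000224).

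Position 745 on the minus strand of TRINITY_DN11867_c10_g1_i1, a contig of 1601 bases, had head shares of 0.312, 0.361, 0.301, 0.436, 0.325 and 0.307. The tail shares were 0.818, 0.750, 0.5, 0.745, 0.757 and 0.873, on 12 to 403 reads. All tail days were above all head days, but day 3 in tail was 9 uncut reads of 18, with a 95% Wilson interval from 0.290 to 0.710 that reaches into the head range. The difference was -0.400 (SE 0.0522, limma adjusted p = 0.00373).

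Position 820 on the minus strand of TRINITY_DN16393_c0_g1_i2, 1366 bases long, had head shares of 0.763, 0.422, 0.644, 0.620 and 0.618 on days 0, 1, 3, 5 and 7. Tail reads were whole on days 0, 1, 3 and 5, on 10 to 33 reads, and the share was 0.995 on day 7 with 212 reads. Every head value was below every tail value, but 10 uncut reads of 10 have a 95% Wilson interval down to 0.722, below the head value of day 0. The difference was -0.386 (SE 0.0520, limma adjusted p = 0.00699). On day 10 the head library held 5 reads there, all uncut, and that day did not enter. With no minimum on reads, which admits it, the difference was -0.321 and the limma adjusted p 0.0620, no longer past the threshold.

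**Figure D1:**
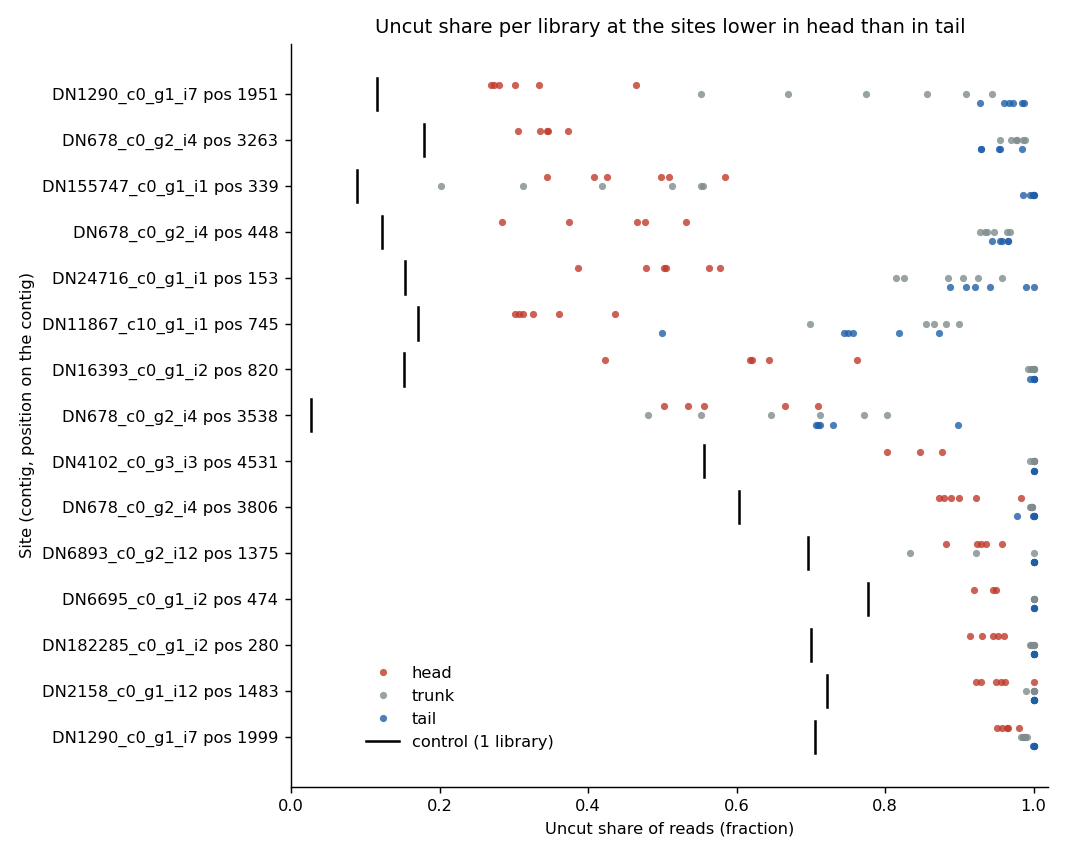
Uncut share of reads (x axis, fraction) at the 15 sites with a lower value in head (y axis, contig and position), 1 point per library of head, trunk and tail with at least 10 reads, and a black bar for the control library. Head points lie well to the left of tail points in the upper 7 sites, and within 0.1 of them on average in 6 of the lower sites.

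The other 8 sites that passed differed by less. At position 3538 of TRINITY_DN678_c0_g2_i4 the head shares were 0.534, 0.556, 0.665, 0.502 and 0.710 on days 0, 1, 3, 5 and 7, and the tail shares 0.710, 0.707, 0.712, 0.730 and 0.898. Head was lower on each day, but the highest head day and the lowest tail day overlapped. The difference was -0.158 (SE 0.0290, limma adjusted p = 0.0184), and leaving out day 0, 1 or 7 gave an adjusted p of 0.0530, 0.0602 or 0.0619. At position 4531 on the plus strand of TRINITY_DN4102_c0_g3_i3, head shares of 0.803, 0.877 and 0.847 on days 3, 5 and 7 stood against tail reads that were whole on 16 to 168 reads. That difference was -0.158 (SE 0.0195, limma adjusted p = 0.0315).

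At the 6 smallest called differences, tail reads were whole or nearly so and a few percent of head reads were cut. Position 3806 of TRINITY_DN678_c0_g2_i4 had head shares from 0.873 to 0.983 and tail shares from 0.978 to 1.0 (difference -0.0887, limma adjusted p = 0.0126, ranges overlapping). Position 1375 of TRINITY_DN6893_c0_g2_i12 had head shares from 0.882 to 0.957 against 1.0 in all 5 tail libraries (difference -0.0743, adjusted p = 0.0115). The remaining 4 were position 474 of TRINITY_DN6695_c0_g1_i2, position 280 of TRINITY_DN182285_c0_g1_i2, position 1483 of TRINITY_DN2158_c0_g1_i12 and position 1999 of TRINITY_DN1290_c0_g1_i7, with differences of -0.0619, -0.0593, -0.0468 and -0.0363. Their limma adjusted p-values were 0.0356, 0.00699, 0.0256 and 0.00699. Head was lower on each paired day at all of these but position 1483, where both poles were whole on day 10 and head was lower on 5 of 6 days.

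The calls at small differences depended on the scale. Each library was also centred on its own median share over the 17 sites paired on all 6 days, which shifted the differences by a median of 0.0537. Then 9 of the 15 sites still passed as lower, and positions 1999 and 1483 turned to 0.0134 and 0.00694, neither past the threshold. On that scale 11 sites passed as lower and 20 as higher in head, but the shift by itself moves a site that is equal in both poles above 0. At 6 of the 15 sites, with large and small differences among them, the median tail depth was under 50 reads.

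The control set an upper limit on how far the poles could differ at a site. The lists held only values at least 0.1 above the control, so that a pair could differ by at most 0.9 minus the control share, and 28 of the 54 sites had room for less than 0.3. The control share had a median of 0.179 at the sites that passed and 0.643 at the others. Of the 10 sites with a control share under 0.2, 8 passed, and of the 36 with a share of at least 0.5, 7 passed. Across the 54 sites the difference and the control share had a Pearson r of 0.722 and a Spearman rho of 0.620, given as a description, since the sites share the same libraries and this bound. Each listed value also had at least 11 uncut reads in the library or in the control. Where the control had fewer, a shallow library could be listed only with a high share. At position 4260 of TRINITY_DN678_c0_g2_i4 the control had 2 uncut reads of 7. Its shallowest paired tail library, with 11 reads, had to be whole. Position 4531 of TRINITY_DN4102_c0_g3_i3 had 5 uncut control reads of 9 and as few as 16 tail reads. High tail shares on few reads at such sites thus partly follow from this minimum.

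**Figure D2:**
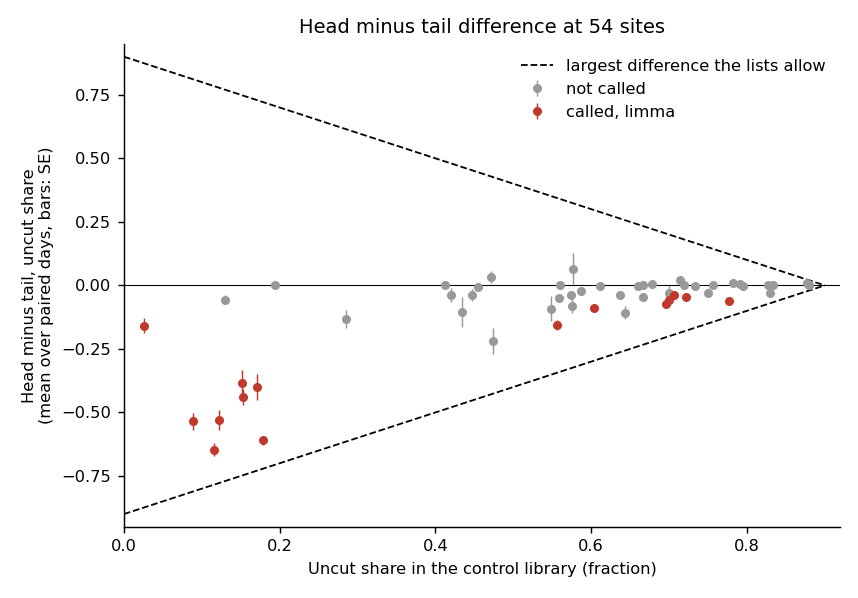
Head minus tail difference in mean uncut share (y axis) against the control's uncut share (x axis), 1 point per site for all 54 sites, with the sites past the threshold marked and a dashed line at the largest difference the lists allow. The differences beyond 0.3 are all at sites with a control share under 0.2.

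Among the 39 sites that did not pass, 9 had a lower head share on each paired day and 0 a higher one on each. The largest of these were position 110 of TRINITY_DN19986_c0_g1_i8 (plus strand), position 4260 of TRINITY_DN678_c0_g2_i4 and position 423 of TRINITY_DN29714_c0_g1_i1, each paired on 3 days. At position 110 the head shares were 0.658, 0.835 and 0.660 on days 0, 5 and 7 and the tail shares 0.893, 0.947 and 0.965, so that the ranges were apart (difference -0.217, limma adjusted p = 0.0871). At position 4260 the difference was -0.133 (adjusted p = 0.109), and at position 423 it was -0.107 (adjusted p = 0.0869).

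The 7 sites with a higher mean in head had differences from 0.00576 to 0.0663, none past the threshold. The highest was position 129 of TRINITY_DN2841_c0_g1_i3, at 0.878 ± 0.0353 in head and 0.811 ± 0.0992 in tail (SD, n = 3 days), on 131 head and 46 tail reads in all. Position 360 of TRINITY_DN19986_c0_g1_i8 had far more reads, 75186 in head and 15282 in tail, and shares of 0.924 ± 0.0144 and 0.904 ± 0.0254 (SD, n = 6 days). Head was higher there on 5 of 6 days, with a difference of 0.0196 (SE 0.0105, limma adjusted p = 0.208). The same contig thus had a head value below tail at position 110 and above it at position 360, by their means.

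At 8 sites no read was cut in either pole, 3 of them on TRINITY_DN4494_c2_g1_i2. The deepest of the 8 was position 2266 of TRINITY_DN678_c0_g2_i4, with 12531 head and 19989 tail reads, all uncut, and a control share of 0.412. The site with the most reads of all was position 2059 of the same contig, with 235381 head and 144156 tail reads. Its share was 0.996 ± 0.0031 in head and 0.99995 ± 0.00011 in tail (SD, n = 6 days), lower in head on all 6 days, and the difference of -0.0039 did not pass (limma adjusted p = 0.0730).

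Sites of a single contig differed widely. TRINITY_DN678_c0_g2_i4 carried 13 of the 54 sites, of which 4 passed, with differences from -0.609 to 0.00654. Position 3307 lay 44 bases from position 3263 and differed by 0.00576, against -0.609 at 3263. Head shares at 3307 were 0.996, 0.996, 0.996, 0.992 and 0.941 on days 0, 1, 5, 7 and 10, and tail shares 0.942, 0.984, 0.984, 0.991 and 0.991, so the poles overlapped. On TRINITY_DN1290_c0_g1_i7, with 6 sites of which 2 passed, position 1999 lay 48 bases from position 1951 and differed by -0.0363, against -0.646. The control share was 0.706 at position 1999 and 0.792 at position 3307, so neither had room for a difference as large as its neighbour's. TRINITY_DN11867_c10_g1_i1, TRINITY_DN2841_c0_g1_i3 and TRINITY_DN4494_c2_g1_i2 carried 3 sites each, of which 1, 0 and 0 passed.

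**Figure D3:**
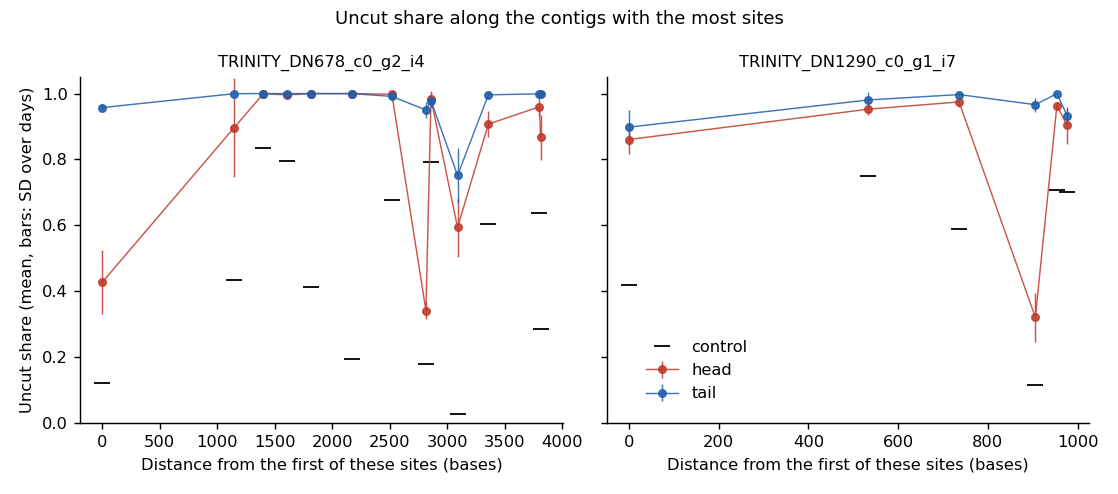
Mean uncut share (y axis, fraction; bars are the SD over paired days) in head and tail along the contigs with the most sites, TRINITY_DN678_c0_g2_i4 and TRINITY_DN1290_c0_g1_i7, against the distance in bases from the first site of each (x axis), with the control as black dashes. Head falls far below tail at single positions, while some positions nearby, such as 3307 and 1999, stay close to 1 in both poles. Others do not, such as position 3538 of TRINITY_DN678_c0_g2_i4, at 0.593 in head and 0.751 in tail.

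By strand, 37 of the 54 sites were on the minus strand of their contig and 17 on the plus strand (68.5% minus, against 56.4% over the series), and the 15 that passed were split 10 and 5. Contigs come from an assembly whose orientation the files do not give, and 14 of the 27 contigs had listed sites on both strands, so the strand does not tell sense from antisense. No sequence or gene name is paired with the contigs in the files, and none is given.

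Averaged over sites, head was below tail on every day. The mean difference in uncut share was -0.1000, -0.143, -0.105, -0.0915, -0.105 and -0.0988 on days 0, 1, 3, 5, 7 and 10, over 30 to 52 sites per day. The medians over the same sites were smaller, at -0.0255, -0.0319, -0.0359, -0.0326, -0.0236 and -0.000826, since the means include the few sites that differed by more than 0.3. Averaged over the 6 days the mean share was 0.865 ± 0.0211 in head and 0.972 ± 0.0073 in tail (SD, n = 6 days), a difference of -0.107 ± 0.0181. The mean m6A level was 0.321 ± 0.0070 in head and 0.428 ± 0.0158 in tail. Head was lower in 164 of the 255 same-day pairs, equal in 62 and higher in 29. The share of sites without a cut read was 27.3% ± 8.4 in head and 62.4% ± 6.4 in tail. Over the 17 sites paired on all 6 days, which keeps the set of sites fixed, the means were 0.823 ± 0.0129 and 0.964 ± 0.0044 and the difference -0.141 ± 0.0162. By day that difference was -0.145, -0.154, -0.130, -0.115, -0.140 and -0.160, so the mean gap was widest on day 10 there and on day 1 over the changing set. The median difference over the 17 sites was instead smallest in size on day 10, at -0.0087, where head had a median of 104 reads. Over pairs with at least 50 reads in both poles the mean difference was -0.153 ± 0.0266.

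**Figure D4:**
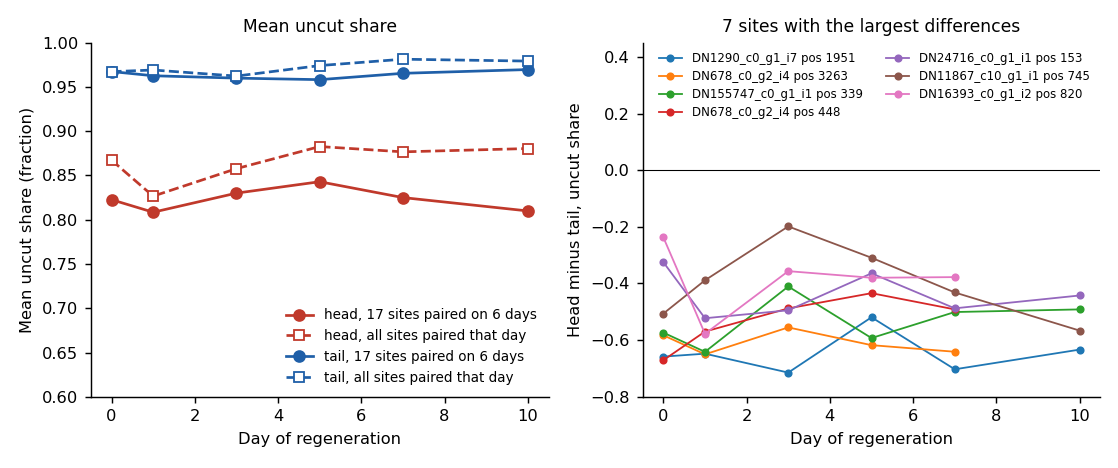
Left, mean uncut share (fraction, axis from 0.6) in head and tail by day of regeneration. Solid lines are the 17 sites paired on all 6 days, and dashed lines all sites paired that day. Right, the head minus tail difference by day at each of the 7 sites with the largest differences, not over all paired sites. In the left panel head lies below tail on each of the 6 days, in the fixed set and in the set of 30 to 52 sites that changes with the day.

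A change of the head minus tail difference with day was tested at the 40 sites paired on at least 4 days. None passed in limma with Benjamini-Hochberg adjustment in either direction (0%), and at an unadjusted p under 0.05 there were 2 falling and 3 rising. The smallest p with a rising difference was at position 1483 of TRINITY_DN2158_c0_g1_i12, at 0.00695 per day (SE 0.00104, adjusted p = 0.0735). Head shares there were 0.923, 0.929, 0.95, 0.961, 0.956 and 1.0 in day order, while tail reads were whole throughout. The smallest p with a falling one was at position 3307 of TRINITY_DN678_c0_g2_i4, at -0.00803 per day (adjusted p = 0.335), where the day 10 head share rested on 17 reads.

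The trunk, the middle piece, was closer to tail than to head at most of the 15 sites. These sites were picked for head values below tail in the same libraries, so where trunk falls is not independent of that choice. The trunk mean was nearer the tail mean at 12 sites and nearer the head mean at 3, and it lay between the poles at 9. Trunk means here cover every trunk day with at least 10 reads, while head and tail means cover only the paired days. At position 3263 of TRINITY_DN678_c0_g2_i4 the trunk share was 0.975 ± 0.0119, and at position 448 it was 0.946, both beside the tail values of 0.95 and 0.958. At position 1951 of TRINITY_DN1290_c0_g1_i7 the trunk mean was 0.784 ± 0.151 (SD, n = 6 days), between the poles. Position 339 of TRINITY_DN155747_c0_g1_i1 differed from these, with a trunk share of 0.426 ± 0.144, near the head value of 0.461 and far from the tail value of 0.997. The other sites with a trunk mean nearer head were position 3538 of TRINITY_DN678_c0_g2_i4 (0.661) and position 1375 of TRINITY_DN6893_c0_g2_i12 (0.919). Position 3538 had no head value on day 10, which its trunk mean includes. On its 5 paired days head minus trunk was -0.0894 and head minus tail -0.158, which places trunk nearer tail on those days.

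Over all sites with enough reads, head was below trunk at 26 of 90 sites (28.9%) and above it at 0 (0%), and at an unadjusted p under 0.05 there were 37 below and 2 above. Trunk was below tail at 11 of 77 sites (14.3%) and above it at 1 (1.3%), position 360 of TRINITY_DN19986_c0_g1_i8, by 0.0700 (limma adjusted p = 0.0115). Of the 15 sites, 12 of 15 tested passed in head against trunk and 2 of 14 in trunk against tail, positions 339 and 1999. Of all 54 sites, 20 of 50 tested passed in head against trunk and 5 of 48 in trunk against tail. These comparisons share head and tail libraries with the head and tail comparison, so their counts are set side by side only, and no test was made of the difference between them.

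Many more contigs were listed in head alone than in tail alone. Of the 2773 contigs with a listed site in either pole on any day, 1449 (52.3%) were in head only, 358 (12.9%) in tail only and 966 in both. Among head-only contigs 488 were listed on 1 day and 89 on all 6, and among tail-only contigs 162 and 20. The head-only contigs held 6.37% of the reads at head sites, and the tail-only contigs 1.24% of those at tail sites. A contig that is absent from a list has no value, since it may have been unexpressed, too shallow or below the least level listed, and in bulk pieces fewer cells of a type and less RNA per cell cannot be told apart.

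The lists of the poles were not filled alike. Reads at listed sites summed to between 12100 and 466710 per head library and between 12642 and 657796 per tail library, and the median listed site had 2 to 16 reads in head libraries and 2 to 4 in tail libraries. A site could enter a list through 11 uncut reads in the library or in the control. In 39.1% of the head-only contigs and 87.7% of the tail-only contigs a site had such control reads. The highest number of reads at any site of the contig had a median of 15 in head-only and 3 in tail-only contigs. Of the contigs listed in 1 pole only, 668 in head and 118 in tail were listed on at least 3 days. Counting only sites with 11 uncut control reads gave 567 head-only and 378 tail-only contigs, and only values on at least 10 reads 1523 and 156. These 2 counts are not parts of the first ones, since a contig that loses its sites in 1 pole moves from both to 1 pole. At 10 reads, 205 contigs were in both. Of head-only contigs 18.5% were also listed in trunk, and of tail-only contigs 48.0%.

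**Figure D5:**
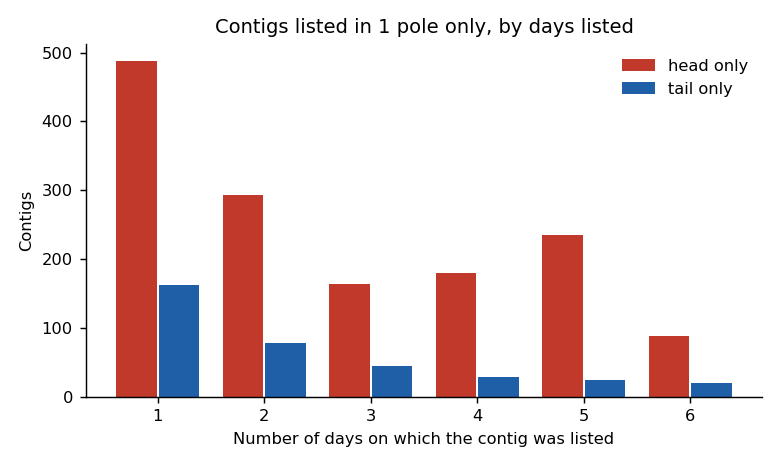
Number of contigs (y axis, from 0) listed in head only or in tail only, by the number of days on which the contig was listed in that pole (x axis). Head-only contigs outnumber tail-only ones at each number of days, from 488 against 162 at 1 day to 89 against 20 at 6 days.

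Of the 89 head-only contigs listed on all 6 days, those with the most reads were TRINITY_DN6902_c0_g1_i5, TRINITY_DN13959_c0_g1_i1, TRINITY_DN6672_c0_g1_i1, TRINITY_DN7453_c0_g1_i17 and TRINITY_DN848_c7_g1_i4. The leading site of TRINITY_DN6902_c0_g1_i5, position 2749, had 269, 208, 145, 167, 224 and 73 reads in day order, all uncut, but its control held 5 uncut reads of 6. At position 270 of TRINITY_DN848_c7_g1_i4 the reads were 140, 233, 133, 108, 88 and 56, also all uncut, for a level of 0.429 over a control of 8 uncut reads of 14. Reads in head were thus ample on each day at both, while the control behind the level was thin.

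Of the 20 tail-only contigs listed on all 6 days, those with the most reads were TRINITY_DN9624_c0_g1_i3, TRINITY_DN4047_c0_g1_i4, TRINITY_DN1827_c0_g1_i1, TRINITY_DN24211_c0_g1_i3 and TRINITY_DN7564_c0_g2_i1, and all 5 were also listed in trunk. At position 477 of TRINITY_DN24211_c0_g1_i3 the reads were 3, 5, 7, 18, 74 and 16 in day order, all uncut, over a control cut in most reads (37 uncut of 215), for a level of 0.828. At position 260 of TRINITY_DN9624_c0_g1_i3 the share was 0.970 ± 0.0213 (SD, n = 4 days) on 31 to 369 reads.

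The same comparison was made for single sites. Of 1086 sites with at least 10 reads in head on at least 3 days, 714 (65.7%) were never listed in tail, and of 162 such tail sites, 70 (43.2%) were never listed in head. For 117 of the 714 and 51 of the 70 the control had 11 uncut reads, so that a single uncut read in the other pole could have listed them if its level reached 0.1.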

How the data were processed

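m6A-REF-seq libraries of head, trunk and tail pieces from 6 days were analysed as deposited. Per the file headers, each row gives a motif position and strand on a contig, with read counts (uncut and total) for the library and for the control, the uncut fraction and the m6A level, also a fraction. The deposited tables also hold an other value, the length of the contig, used here to describe it. The control columns carry the letters fto beside IVT and were taken as the in vitro transcribed library, which every level depends on. The submitters' processing notes name HISAT2 2.4.2, fastp 0.20.0 and FastQC, while the read counter and the assembly are not given in the sources used here. Each deposited level equalled the library's uncut share minus the control's in all 23432 rows, within a tolerance of 1e-09. No row had a level under 0.1 or fewer than 11 uncut reads in both library and control, as read from the values. Total depth is unknown, since only listed sites carry counts.

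Day-paired differences of uncut share were fitted with limma 3.58.1 (lmFit and eBayes, R 4.3.3) over every site with at least 10 reads in both poles on the same day on at least 3 days, with Benjamini-Hochberg adjustment over all sites tested and a threshold of 0.05. A day trend needed 4 paired days. Head against trunk and trunk against tail were fitted in the same way. The scripts were tested on simulated data. Its uncut shares were mostly below those of tail here, so that test does not cover sites at or near 1. Other values were computed in Python 3.11.15 with pandas 2.3.3. Wilson intervals are at 95%, and cover counting error only, since reads of 1 library are not independent molecules. The pairing by day comes from the labels. Same-day deviations of head and tail from their own means correlated from -0.403 to 0.494 over the 17 sites paired on all days, and above 0.1 on 3 of 6 days. Head correlated best with the tail of its own day on 1 of 6 days, so these values do not back the pairing. Replicates were pools of worms, and nothing in the labels says that pools were split or shared, so the p-values reflect variation from day to day between libraries.

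Sites were named by a rule: all those past the threshold with 1 sign on every paired day, the 3 largest others with 1 sign in each direction, the 3 with most reads, the 3 contigs with most sites, the smallest trend p in each direction, and, for each pole, the 5 contigs listed there alone on the most days, with ties broken by reads. The sites with a higher mean in head, position 2266, and those of other settings were added, and positions 1483 and 3307, named by the trend rule, were described in other places too, after their values were seen. The sites, lists and tests were chosen with earlier results of these data known. Lists of marker and pathway genes were not used here, since the files pair no contig with a gene. Alternatives changed the coverage minimum, the days needed, the scale, the model, the block, the variance prior, the centring and the sites admitted, and left out each day in turn.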

Additional observations from a re-analysis of the deposited data

Results flagged for a closer look

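For 27 sets of 5 or 6 libraries of 1 pole, or of the daily mean difference, the highest and lowest values were set against the rest. In 8 a value lay far from the others, where chance gives about 1 in 20. That rate need not hold for tail shares at or near 1, as at positions 820, 1999 and 2059, where any cut read stands out. Head day 5 stood high at position 1951 of TRINITY_DN1290_c0_g1_i7, at 0.465 against 0.270 to 0.333 on the other days. Tail day 3 stood low at position 745 of TRINITY_DN11867_c10_g1_i1, at 0.5 on 18 reads. Tail day 7 stood high at position 3538 of TRINITY_DN678_c0_g2_i4, at 0.898 on 18637 reads. At position 820 of TRINITY_DN16393_c0_g1_i2 (0.995) and position 1999 of TRINITY_DN1290_c0_g1_i7 (0.9995), tail day 7 was the only paired tail library with a cut read. At position 2059 of TRINITY_DN678_c0_g2_i4 tail day 5, at 0.9997, held 6 cut reads of 21897, against 1 of 96600 on day 7 and 0 on the other days. At position 3806 of the same contig tail day 5, at 0.978, stood beside 0.9993 on day 7 and 1.0 on the other days. The mean difference over sites stood apart on day 1, at -0.143, over the 34 sites paired that day. Over the 17 sites paired on all 6 days it did not, at -0.154 within a range from -0.160 to -0.115.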

How the results depend on the processing

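The number of sites lower in head, 15 of 54, was 12 of 36 at 20 reads, 14 of 25 at 50 reads, 18 of 212 with no minimum, 9 of 17 with all 6 days required (fewer sites enter), 19 on the log2 scale, 15 with a robust prior, 16 without sites uncut in every library, 11 of 54 with libraries centred, 25 in the quasi-binomial model and 23 with no replicate block (days not paired). Of the 15, the last held all 15, the quasi-binomial model 14, the log2 scale 12, centring 9 and no minimum 9, which adds days and sites on few reads. The 6 lost with no minimum were position 820 of TRINITY_DN16393_c0_g1_i2, 3538 of TRINITY_DN678_c0_g2_i4, 4531 of TRINITY_DN4102_c0_g3_i3, 280 of TRINITY_DN182285_c0_g1_i2, 1483 of TRINITY_DN2158_c0_g1_i12 and 1999 of TRINITY_DN1290_c0_g1_i7, at adjusted p from 0.0533 to 0.0743. Without TRINITY_DN678_c0_g2_i4, an alternative chosen after seeing the data, 11 of 41 passed. Leaving out each day gave 11 to 18, the lowest without day 7. Sites higher in head, 0, became 3 on the log2 scale (position 317 of TRINITY_DN182285_c0_g1_i2, 152 of TRINITY_DN870_c17_g1_i2 and 2967 of TRINITY_DN678_c0_g2_i4), 2 in the quasi-binomial model (position 2967 again and 360 of TRINITY_DN19986_c0_g1_i8) and 20 with centring. Positions 317 and 152 have no cut read in either pole, so that on the log2 scale, with 0.5 added to both counts, read depth alone sets their value. Centring turned position 1999 of TRINITY_DN1290_c0_g1_i7 to 0.0134 and position 2059 of TRINITY_DN678_c0_g2_i4 to 0.0498. Head below trunk gave 13 to 30 sites with a day left out (the fewest without day 1, and 16 without day 3 or day 5), and head above trunk 0 to 1, and 1 with no replicate block (position 2353 of TRINITY_DN1568_c0_g1_i6). Trunk below tail gave 17 with no replicate block, and trunk above tail 1 to 2 with a day left out, the second being position 745 of TRINITY_DN11867_c10_g1_i1 without day 10. For the day trend, day 0 against later days gave 1 site in each direction. The difference rose after day 0 at position 1554 of TRINITY_DN2158_c0_g1_i12, which had 1 cut head read in all. The difference fell after day 0 at position 2967 of TRINITY_DN678_c0_g2_i4. Day 0 is a single pair of libraries, so nothing rests on these. Requiring all 6 days gave 1 rising, and leaving out a day gave 0 to 1 (without day 7), in both cases position 1483 of TRINITY_DN2158_c0_g1_i12. The mean daily difference was -0.153 at 50 reads. Head-only contigs numbered 668 with 3 days required and 567 with 11 uncut control reads, and tail-only contigs 156 at 10 reads and 118 with 3 days. The cause of these shifts was not tested except where stated. Where no tail read is cut, depth limits how small a cut share can be seen.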
